A study of Danio rerio with 6 samples.

Results

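The genes described here are the organic anion transporting polypeptides (slco), the solute carrier 22 family of organic anion, cation and carnitine carriers (slc22a), the toxin extrusion proteins (slc47a), and the B and C subfamilies of the ATP-binding cassette transporters (abcb, abcc). They were chosen by name from a table of 23354 zebrafish genes: every gene whose symbol begins with one of these 5 stems, in lower case, leaving out slco1d1, abcb11a and abcb11b. This gave 46 members, 9 of them slco, 12 slc22a, 2 slc47a, 9 abcb and 14 abcc genes. RNA from livers of adult zebrafish was sequenced, with 3 libraries from capn3b-/- mutants and 3 from wild type fish of the laboratory strain AB. The gene capn3b encodes one of the zebrafish calpain 3 proteases, and the series asked which genes differ between mutant and wild type liver. The labels give neither the sex of the fish nor how many animals stand behind a library, and the p-values therefore reflect only the variation among these libraries, which may be technical. The gene capn3b itself was listed at 0 in all libraries but mutant replicate 3, where it had 0.018 FPKM, so its level does not check the genotype labels.

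Hepatocytes take up drugs, hormones, bile pigments and other organic ions from the blood through slco and slc22a carriers on their basolateral face. Conjugates and organic cations leave into bile through ABC transporters and toxin extrusion proteins of the canalicular face, or return to the blood through other ABC transporters. Several abcb proteins work instead in mitochondria and lysosomes, and the abcc subfamily also holds the sulfonylurea receptors, which are subunits of potassium channels.

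Levels are FPKM, which corrects for gene length and for library size, so that genes can be set beside each other. Library sizes, solved for from the FPKM values, were 16858409 to 19492592 reads. Mitochondrial genes made 4.47% to 5.48% of the summed FPKM in mutant and 6.25% to 8.61% in wild type libraries. Of the 46 members, 25 reached 1 FPKM in at least 3 of the 6 libraries and were tested; 22 of these reached it in all 6 libraries, abcc9 in all but wild type replicate 2, slco3a1 in the mutant libraries only and slc22a16 in the wild type libraries only. The other 21 were below this filter. Differences are log2 fold changes of FPKM + 1, mutant over wild type, fitted with limma over 11164 genes, and a gene was called at a Benjamini-Hochberg adjusted p under 0.05. This scale understates the change of genes with low levels. Errors beside means are standard deviations (SD) over 3 libraries a group.

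The organic cation transporter genes slc22a2 and slc22a16 and the exporter gene abcc4 fell in the mutant liver, and the exporter gene abcc3, the channel subunit gene abcc9 and the carrier gene slco3a1 rose. These 6 of 25 tested members, 3 in each direction, were past the threshold, where the share over all tested genes was 11.4% (5.91% higher and 5.45% lower). The median log2 fold change was -0.12 over the 25 members and 0.05 over all 11164 genes. An unadjusted p under 0.05 (limma) was seen in 15 of the 25 members, and such counts are also given for other lists below. Every called gene is under that cut too, so 11.4% is only a floor for the share over all tested genes. The adjustment divides an unadjusted p by about the share of genes at or below it. For abcb4 it turned 0.0408 into 0.156 (limma), so the share at the cut is well above 11.4%. Its exact value was not counted, and no excess is read from the 15 members. In 15 of the 25 members the libraries of one genotype lay wholly above those of the other, 5 with the mutant above and 10 with the mutant below. Over all tested genes that share was 33.8%, with 19.1% above and 14.7% below. Markers of blood and immune cells also differed between the genotypes; their values stand in the last paragraph, and their part in these counts was not tested.

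**Figure D1:**
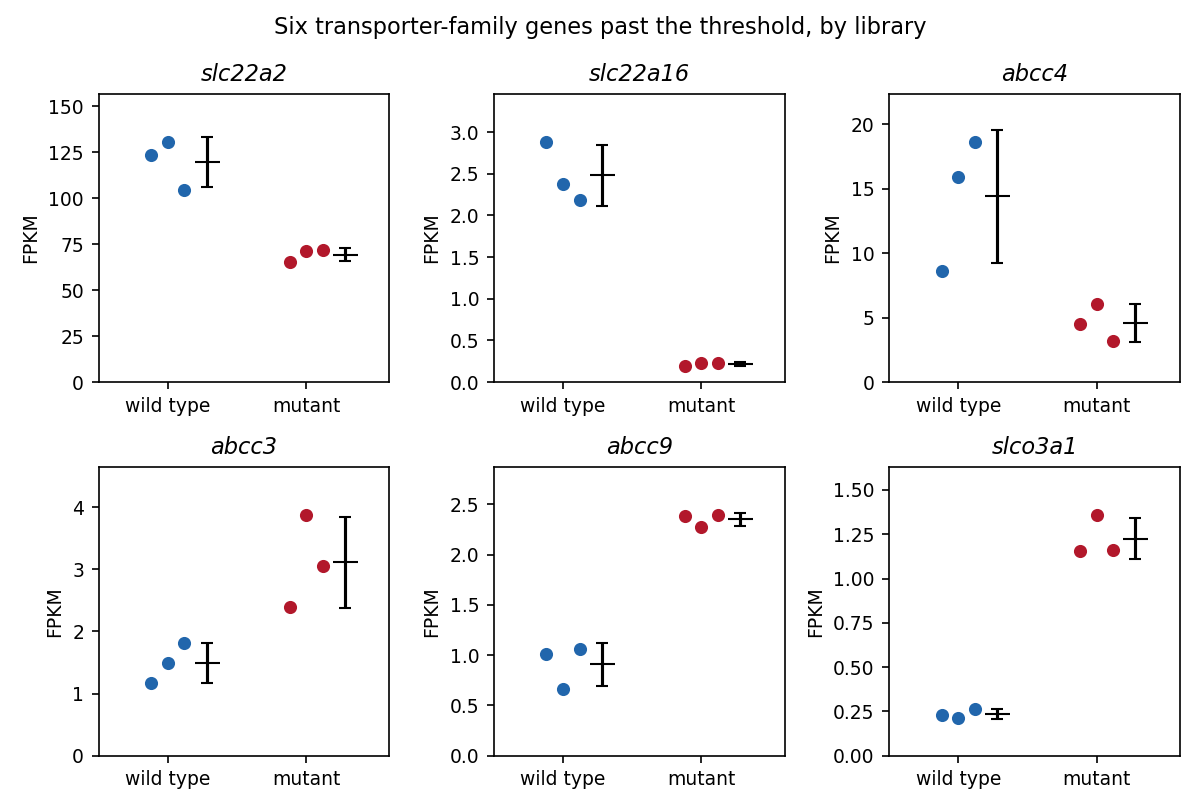
FPKM (vertical axes, starting at 0) of the 6 members past the threshold in the 3 wild type (blue) and 3 mutant (red) libraries, in replicate order, with the mean and standard deviation in black. In each panel the genotypes do not overlap; slc22a2, slc22a16 and abcc4 are lower in the mutant and abcc3, abcc9 and slco3a1 are higher.

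**Figure D2:**
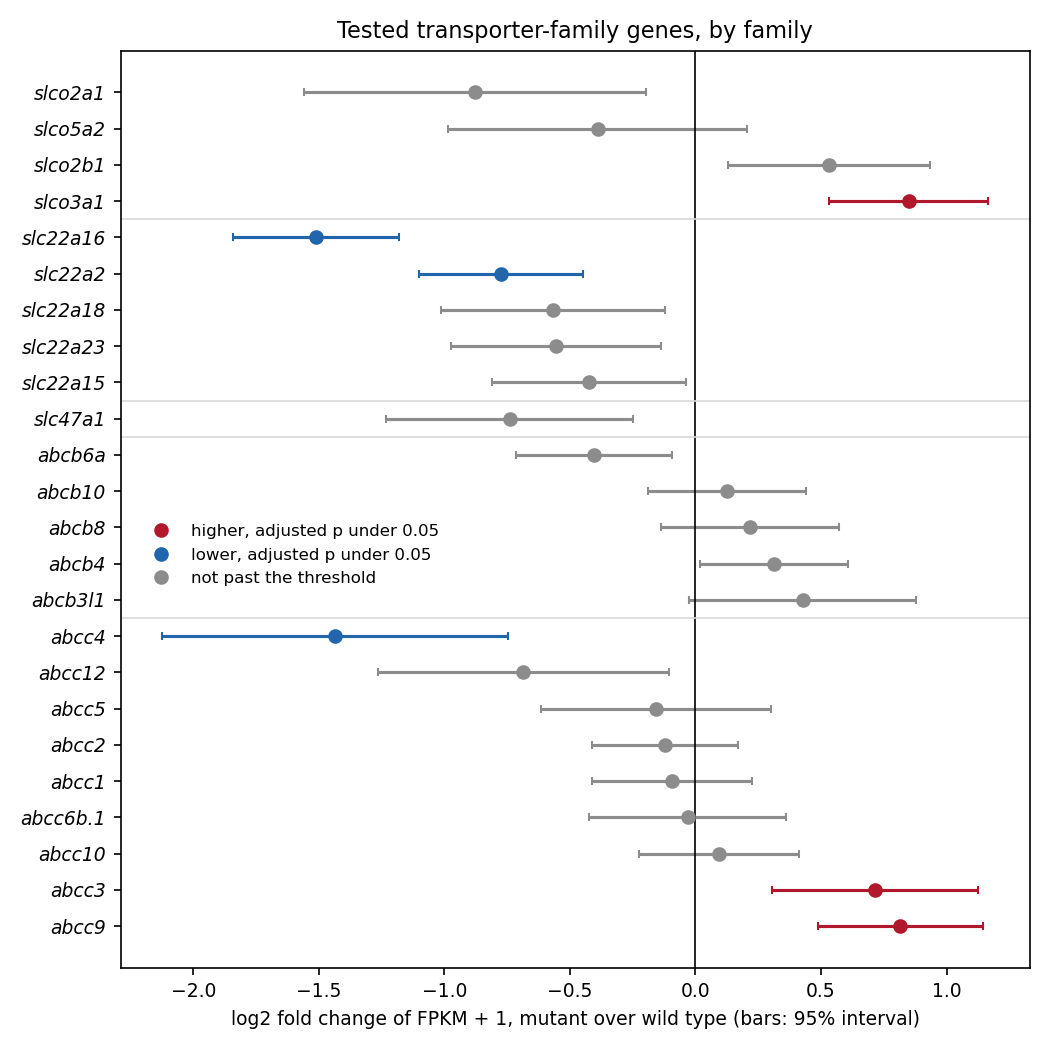
Log2 fold change of FPKM + 1, mutant over wild type (horizontal axis), with its 95% interval, for 24 of the 25 tested members, grouped by family (from the top slco, slc22a, slc47a, abcb and abcc). The 5 slc22a members all lie below 0, whereas 4 of the 5 abcb members shown lie above 0 and none of them passed the threshold.

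The summed level of all 46 members was 353, 343 and 368 FPKM in mutant libraries against 454, 501 and 509 FPKM in wild type ones. Every mutant library was thus below every wild type library in this sum. Most of it came from few genes: slc22a2, abcc2 and slco2a1 together made 55.2% to 63.5% of the sum in a library. The summed slc22a level was 121, 124 and 135 FPKM in the mutant and 209, 209 and 198 FPKM in the wild type, and the summed abcc level was 139, 143 and 131 FPKM against 149, 162 and 165 FPKM. In bulk tissue, fewer cells of a type and less RNA per cell cannot be told apart.

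**Figure D3:**
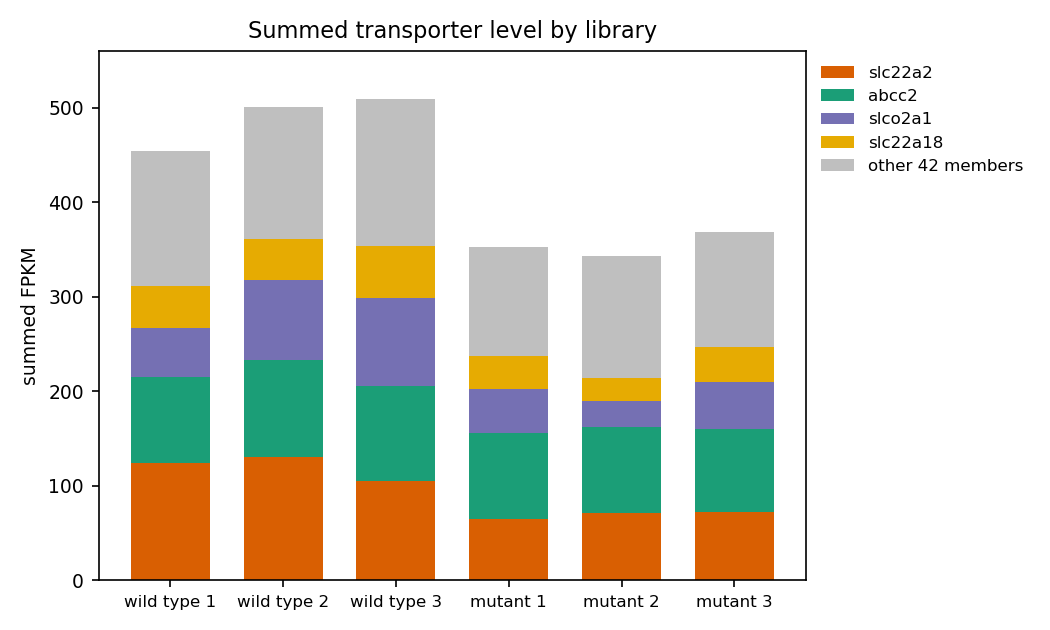
Summed FPKM of the 46 members (vertical axis, from 0) in each library, with the 4 most abundant members in colour and the other 42 in grey. The mutant bars end between 343 and 368 FPKM and the wild type bars between 454 and 509 FPKM, and the abcc2 segment is of similar height in all 6 libraries.

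Among the slc22a carriers, slc22a2 was the most abundant. It encodes the organic cation transporter known from the basolateral membrane of the mammalian kidney tubule. It lies 16.7 Mb from capn3b on chromosome 20, at 42771765 to 42791377 (ENSDARG00000030530, with positions here and below those of the deposited table, build GRCz11). Its level was 65.1, 71.1 and 72.0 FPKM in mutant libraries against 124, 131 and 105 FPKM in wild type ones. The highest mutant library was thus well below the lowest wild type library. The log2 fold change was -0.77 (standard error 0.14; limma, adjusted p = 0.0160), and the ratio of mean FPKM, wild type over mutant, was 1.73. The call was lost without mutant replicate 1 or without wild type replicate 2, with a highest adjusted p of 0.0648 over 14 alternatives.

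The gene slc22a16, which in human encodes a carnitine and organic cation carrier, showed the largest ratio of the tested members. It lies on the same chromosome, at 31384477 to 31402624 (ENSDARG00000015869), 5.28 Mb from capn3b, and it was the only member within 10 Mb of the mutated gene. The genes slc22a2 and slc22a16 were the only 2 members on chromosome 20, and whether this position bears on their fall was not tested. In the mutant libraries 15, 18 and 19 reads of slc22a16 were recovered, against 248, 181 and 162 in the wild type libraries. This corresponds to 0.190, 0.228 and 0.233 FPKM against 2.89, 2.38 and 2.18 FPKM. The mean level was 0.217 ± 0.024 FPKM in mutants against 2.48 ± 0.36 in wild type (SD, n = 3), a ratio of 11.4, wild type over mutant. On the log2(FPKM + 1) scale the change was -1.51 with a standard error of 0.14 (limma, adjusted p = 0.00204), and it passed under all 13 alternatives in which the gene was tested. All of these but the fit with no filter admitted the gene through its wild type libraries alone. On recovered reads, with no such offset, its log2 fold change was -3.48. Its span overlaps that of hpcal1 on the other strand, which had a mean of 0.299 FPKM, and no source used here says that reads were counted by strand.

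The other tested carriers of the family were also below 0 in log2 fold change without passing the threshold. The gene slc22a18, an organic cation transporter-like gene, had 34.6, 24.7 and 37.5 FPKM in the mutant and 44.8, 43.1 and 55.8 FPKM in the wild type (log2 fold change -0.57, standard error 0.19, limma adjusted p = 0.1004). For slc22a23, a family member with no established substrate, the levels were 7.29, 10.1 and 11.4 FPKM against 15.8, 14.5 and 13.0 FPKM (adjusted p = 0.0879, limma). In both genes the genotypes did not overlap. The zwitterion carrier gene slc22a15 had 13.4, 17.9 and 13.1 FPKM in the mutant and 21.1, 17.7 and 21.6 FPKM in the wild type, so that mutant replicate 2 lay above wild type replicate 2 (adjusted p = 0.143, limma). The family's median log2 fold change was -0.57, and all 5 tested slc22a members were also below 0 with median scaling, quantile normalization and on recovered reads. Over all tested genes, 4938 of 11164 had a log2 fold change below 0.

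The toxin extrusion gene slc47a1 encodes a proton-driven exporter that in mammals passes organic cations taken up by carriers such as slc22a2 on into bile or urine. It had 5.24, 4.48 and 7.83 FPKM in mutant libraries against 11.2, 8.26 and 11.5 FPKM in wild type ones, with mutant replicate 3 just under wild type replicate 2. Its log2 fold change of -0.74 (standard error 0.21, 95% interval -1.23 to -0.25) missed the threshold at an adjusted p of 0.0621 (limma). It passed in 5 of 14 alternatives, among them median scaling, quantile normalization, recovered reads and the fit without mutant replicate 3, with adjusted p between 0.0289 and 0.182 over the 14. The second slc47a member under the naming rule, slc47a2, was below the filter, with 14 mutant reads, 11 of them in replicate 3, and 6 wild type reads, all in replicate 3. Further genes under the upper-case symbol SLC47A1 lie outside the rule and were also below the filter.

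The slco carriers divided in direction, 2 of the 4 tested members being above and 2 below 0. The low-abundance gene slco3a1 rose; it encodes a widely expressed carrier that in human takes up prostaglandins and thyroid hormone. It lies on chromosome 18, 25087452 to 25190698 (ENSDARG00000018726). Its reads numbered 51, 60 and 53 in mutant libraries against 11, 9 and 11 in wild type ones, that is 1.15, 1.36 and 1.16 FPKM against 0.229, 0.211 and 0.264 FPKM. The values within each genotype were close together, and the mutant to wild type ratio of mean FPKM was 5.22. The log2 fold change was 0.85 (standard error 0.14, limma, adjusted p = 0.0109), and it passed under all 13 alternatives in which the gene was tested, with a highest adjusted p of 0.0456. All of these but the fit with no filter admitted the gene through its mutant libraries alone.

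The most abundant slco member was slco2a1, at 46.6, 27.1 and 49.7 FPKM in the mutant and 51.3, 84.6 and 93.1 FPKM in the wild type. Its symbol, which the gene name table also gives, is that of the mammalian prostaglandin transporter, whereas the protein description in the deposited table names another slco2 member, and no role is assigned to it here. Wild type replicate 1 lay close to mutant replicates 1 and 3, and the log2 fold change of -0.88 had a standard error of 0.29 (limma, adjusted p = 0.0953, 95% interval -1.56 to -0.20). The gene slco2b1, in mammals an uptake carrier of steroid conjugates and drugs, stood at 1.77, 2.82 and 2.79 FPKM against 1.19, 1.66 and 1.29 FPKM. Its genotypes did not overlap, and its log2 fold change of 0.53 (standard error 0.17) had an adjusted p of 0.0890 (limma). The tested gene slco5a2 is named slco5a1b in the gene name table, while its protein description in the deposited table is that of a receptor-type tyrosine phosphatase. Its levels of 2.54, 1.99 and 2.57 FPKM in the mutant lay within the wild type range of 1.87 to 4.78 FPKM.

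Transcripts of slco2a1 were listed in a pair of forms. In the authors' deposited event lists, which give FPKM for transcript forms library by library, one form carried a block of exons between 27656343 and 27670618 on chromosome 6 and the other skipped it. The form with the block was listed at 57.4, 35.9 and 57.9 FPKM in the mutant and 65.7, 107 and 117 FPKM in the wild type. The skipping form was listed at 0, 0 and 36.5 FPKM in the mutant and at 25.6, 53.3 and 56.0 FPKM in the wild type. It therefore made up 38.6% of both forms in mutant replicate 3 and 28.03%, 33.3% and 32.4% in the wild type libraries, and it was listed at 0 in mutant replicates 1 and 2. From their shared start, both forms together were listed at 57.4, 35.9 and 94.4 FPKM in the mutant and 91.2, 160 and 173 FPKM in the wild type. These totals differ from the gene level of slco2a1, and in them mutant replicate 3 lay above wild type replicate 1. The event lists give no read counts, so no interval can be attached to a form listed at 0, and no test was run.

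**Figure D4:**
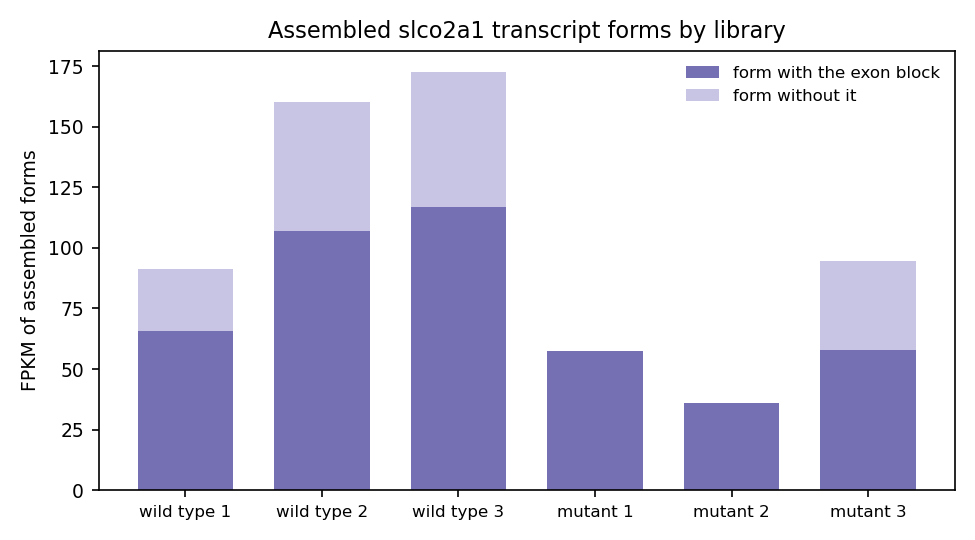
FPKM of the slco2a1 forms with (dark) and without (light) the exon block in each library, stacked from 0. The form without the block is present in all 3 wild type libraries and in mutant replicate 3, and is listed at 0 in mutant replicates 1 and 2. The bars are not the gene level, and that of mutant replicate 3 ends above that of wild type replicate 1.

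The main conjugate exporter of the canalicular membrane, abcc2, which in mammals passes bilirubin glucuronide into bile, was close in level in both genotypes. It had 90.8, 91.0 and 88.0 FPKM in mutant libraries against 91.5, 102 and 100 FPKM in wild type ones, with 7871 to 8640 reads in each. The mutant values all lay just below the wild type values, and wild type replicate 1 was within 1 FPKM of the mutant. The log2 fold change was -0.12 (standard error 0.13, 95% interval -0.41 to 0.17; limma, adjusted p = 0.570). The multidrug exporter gene abcb4, whose product in zebrafish resembles mammalian P-glycoprotein, had 10.41, 10.75 and 10.98 FPKM in the mutant and 7.78, 8.36 and 9.18 FPKM in the wild type. Its genotypes did not overlap, but the difference was small (log2 fold change 0.31, standard error 0.13) and the adjusted p was 0.156 (limma).

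Exporters that in mammals return compounds from the hepatocyte to the blood changed in opposite directions. The gene abcc4, on chromosome 6, 7165418 to 7233289 (ENSDARG00000058953), encodes an exporter of cyclic nucleotides, prostaglandins and bile acids. Its level was 4.50, 6.07 and 3.16 FPKM in mutant libraries against 8.65, 15.9 and 18.6 FPKM in wild type ones. All mutant values were below all wild type values, though wild type replicate 1 lay nearer to the mutant libraries than to the others of its own group. The log2 fold change was -1.44 (standard error 0.30; limma, adjusted p = 0.0229), and the ratio of mean FPKM, wild type over mutant, was 3.15. Without mutant replicate 1 or 3, without wild type replicate 2 or 3, or with no filter, the call was lost, with a highest adjusted p of 0.0884 over 14 alternatives.

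The gene abcc3, on chromosome 12, 689678 to 780867 (ENSDARG00000096662), encodes an exporter of glucuronides. It rose, with 2.40, 3.87 and 3.06 FPKM in mutant libraries against 1.173, 1.495 and 1.809 FPKM in wild type ones. The lowest mutant library stood above the highest wild type library, and the mutant to wild type ratio of mean FPKM was 2.08. The log2 fold change was 0.71 (standard error 0.18; limma, adjusted p = 0.0407). This was the call nearest to the threshold, and it was lost in 6 of 13 alternatives: with no filter and without any of mutant replicates 1, 2 and 3 or wild type replicates 1 and 2 (highest adjusted p 0.123).

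The third risen gene, abcc9, encodes a sulfonylurea receptor, a regulatory subunit of ATP-sensitive potassium channels and not a transporter of organic ions. It lies on chromosome 4, 14658198 to 14715780 (ENSDARG00000015985). Its reads numbered 256, 244 and 265 in mutant libraries against 118, 69 and 107 in wild type ones, or 2.39, 2.27 and 2.39 FPKM against 1.01, 0.667 and 1.06 FPKM. The mutant values hardly differed among themselves and were above every wild type value, with a ratio of mean FPKM of 2.58. The log2 fold change was 0.82 (standard error 0.14; limma, adjusted p = 0.0135), and the call was lost only without mutant replicate 1 (adjusted p = 0.0522, the highest of 13 alternatives, the lowest being 0.00803). In mammals abcc9 is a gene of vascular smooth muscle and pericytes. No separate list of markers for those cells was used. The summed level of 5 stellate cell and fibroblast markers was 11.4, 11.5 and 23.2 FPKM in mutant libraries. In wild type ones it was 10.1, 7.65 and 11.5 FPKM, and the genotypes overlapped. Of the 4 markers tested none passed the threshold in limma, 2 had an unadjusted p under 0.05 (limma) and 1 passed on recovered reads. Over all tested genes 12.4% passed on recovered reads. The share under the unadjusted cut is well above 11.4% and was not counted, so no excess is read from these 2 markers. The part of these cells in the abcc9 result was not tested.

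The other abcc exporters did not pass the threshold. The gene abcc12, an abcc member with no established substrate, had 7.48, 4.18 and 6.60 FPKM in the mutant and 14.1, 9.02 and 8.18 FPKM in the wild type, without overlap (log2 fold change -0.68, standard error 0.25, limma adjusted p = 0.119). The exporter gene abcc5 (10.8 ± 1.4 against 12.4 ± 3.1 FPKM) and the gene abcc6b.1 (17.5 ± 3.3 against 17.8 ± 1.9 FPKM, SD, n = 3), one of the zebrafish genes related to the mammalian hepatic exporter needed for pyrophosphate release, had overlapping genotypes. Their 95% intervals for the log2 fold change were -0.62 to 0.30 and -0.42 to 0.36. The span of abcc6b.1 overlaps its neighbour abcc6b.2 on the same strand, so reads of this pair may not be separable. The glutathione conjugate exporter gene abcc1 and the gene abcc10 had log2 fold changes of -0.09 and 0.10 at mean levels under 2 FPKM.

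None of the 6 tested abcb members passed in limma, nor on recovered reads. In 2 of them, abcb4 and abcb6a, the unadjusted p was under 0.05 (limma). The share of all tested genes at that cut is well above 11.4% and was not counted, so no excess is read from these 2. The mitochondrial member abcb8 had 4.09 ± 0.61 FPKM in mutants against 3.38 ± 0.51 in wild type, and abcb10, which serves haem synthesis in mitochondria, had 1.64 ± 0.11 against 1.43 ± 0.21 (SD, n = 3). Both had overlapping genotypes. The porphyrin transporter gene abcb6a was lower in every mutant library, at 2.46, 2.88 and 3.16 FPKM against 3.72, 4.30 and 4.16 FPKM (log2 fold change -0.40, standard error 0.13, limma adjusted p = 0.0933), and among the alternatives passed with quantile normalization alone. The gene abcb3l1, which the deposited table describes as an antigen peptide transporter, had 3.24, 3.15 and 4.57 FPKM in the mutant and 1.95, 2.16 and 3.33 FPKM in the wild type, with overlap. Its span overlaps the immunoproteasome genes psmb10 and psmb8a on the other strand.

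Members below the filter were hardly read in liver. Of these 21 genes, 7 had fewer than 10 reads over all 6 libraries, 12 had 10 to 99, and 2 had 173 and 176, and their highest value was 1.06 FPKM, for abcb9 in mutant replicate 1. They included slc22a4 (26 reads), the carnitine carrier gene slc22a5 (6 reads), and the sulfonylurea receptor gene abcc8, whose 15 reads all lay in wild type replicate 1. The gene slco1c1, a thyroid hormone carrier of brain vessels in mammals, was singled out after its values were seen. It had 11, 6 and 10 mutant reads and 1, 0 and 0 wild type reads, a depth-scaled ratio of 26.7 with a 95% exact binomial counting interval of 4.40 to 1092, which covers counting error only. The summed level of 7 endothelial markers was 20.03 to 21.52 FPKM in the mutant and 19.70 to 22.01 FPKM in the wild type, and none of the 4 tested had an unadjusted p under 0.05 or passed in limma or on recovered reads. The part of vessel cells in the slco1c1 reads was not tested. Without the filter, 4 members passed among 23354 genes, and these were slc22a2, slc22a16, slco3a1 and abcc9.

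The event lists also give transcript starts. Of the 25 tested members, 20 had 1 start exon with FPKM above 0 in all 6 libraries, none had more than 1, and 5 had none common to all libraries. Transcripts from the single shared start of slc22a2 were listed at 104, 97.3 and 93.8 FPKM in the mutant and 184, 168 and 151 FPKM in the wild type. For slc22a16 the values were 0.244, 0.336 and 0.335 FPKM against 3.67, 3.62 and 3.47 FPKM, and for abcc4 they were 4.22, 5.73 and 3.03 FPKM against 8.36, 14.9 and 18.2 FPKM. These values come from the same reads as the gene table. In slc47a1, an exon ending at 39945165 on chromosome 21 was listed with a pair of start positions 27 bases apart, and the longer exon made up 16.0%, 24.1% and 16.6% of both forms in the mutant libraries and 28.8% and 21.6% in wild type replicates 1 and 3, with no entry in wild type replicate 2.

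Genes that govern or surround these transporters gave the following counts. Of 25 tested regulator genes, 3 fell and 1 rose, where 11.4% of all tested genes were called in either direction. Their median log2 fold change was -0.25. The gene keap1a, encoding a form of the sensor that restrains the antioxidant factor Nrf2, fell from 16.6 ± 1.7 to 5.84 ± 1.54 FPKM (limma, adjusted p = 0.00703). Its paralogue keap1b, named after its values were seen, had 7.30 ± 1.16 FPKM in wild type and 9.06 ± 0.99 in mutants and was not called (limma, adjusted p = 0.284). The gene hnf4a, a nuclear receptor that maintains hepatocyte genes including carriers, fell from 36.5 ± 5.1 to 19.1 ± 2.5 FPKM (limma, adjusted p = 0.0158). The hepatocyte factor gene foxa3 rose from 24.2 ± 4.7 to 43.1 ± 6.2 FPKM (adjusted p = 0.0320), and the oxysterol receptor gene nr1h3, named after its values were seen, fell from 9.22 ± 2.11 to 4.95 ± 1.08 FPKM (adjusted p = 0.0444; SD, n = 3, limma). The calls of hnf4a, foxa3 and nr1h3 were lost in 3, 6 and 7 of 14 alternatives, and for each of them this held without wild type replicate 2 and without either of the mutant replicates 1 and 2 (highest adjusted p 0.0614, 0.106 and 0.136). The call of keap1a held in all 14. Of 8 tested scaffold and canalicular partner genes none passed in limma, 3 had an unadjusted p under 0.05 and 2 passed on recovered reads. Over all tested genes 12.4% passed on recovered reads. The share under the unadjusted cut is well above 11.4% and was not counted, so no excess is read from these 3 genes.

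**Figure D5:**
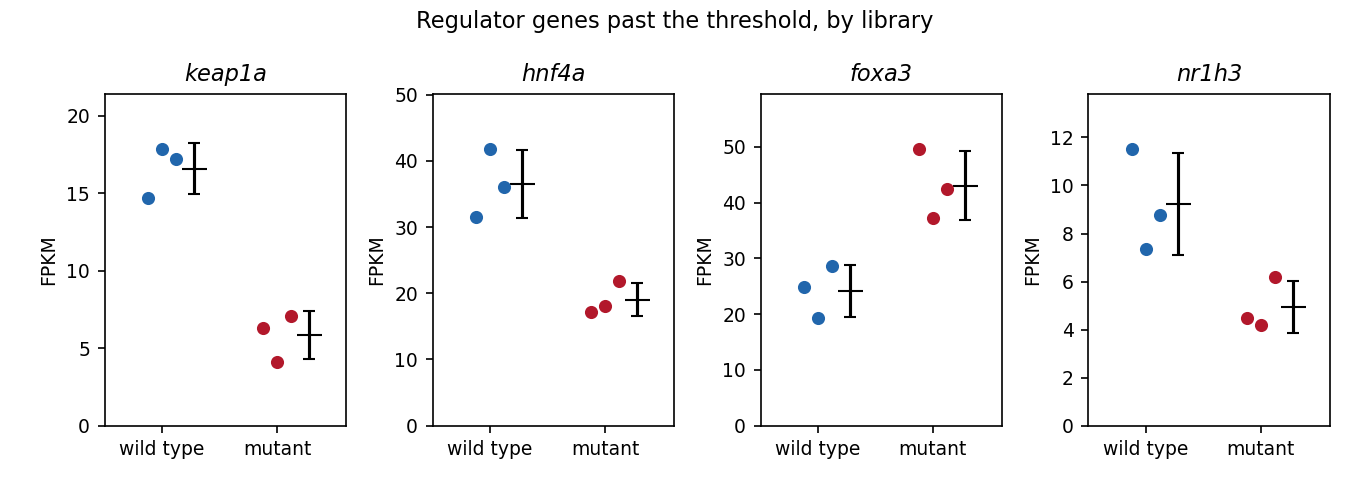
FPKM (vertical axes, from 0) of the 4 regulator genes past the threshold in wild type (blue) and mutant (red) libraries, with the mean and standard deviation in black. The genotypes do not overlap in any panel; keap1a, hnf4a and nr1h3 are lower and foxa3 is higher in the mutant.

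Among 16 tested ABC transporters of the other subfamilies, 2 rose and 3 fell (median log2 fold change -0.01), where 11.4% of all tested genes were called. The lipid transporter gene abca2 rose from 0.408 to 5.74 FPKM, and abca1b, which belongs with the cholesterol exporters and was named after its values were seen, from 0.560 to 3.82. The filter admitted abca2 through its mutant libraries alone, its wild type libraries having 0.403, 0.203 and 0.618 FPKM. In wild type, abca1b reached 1 FPKM in replicate 3 only. The peroxisomal fatty acid transporter gene abcd3a fell from 180 to 76.8 FPKM, and the sterol exporter genes abcg8 and abcg5, the second named after its values were seen, fell from 23.8 to 12.2 and from 17.3 to 9.08 FPKM (limma, adjusted p between 0.00460 and 0.0185 for these 5 genes). The spans of abcg5 and abcg8 overlap each other, both calls were lost without wild type replicate 2, and that of abca1b in 4 of 13 alternatives. Among 16 tested carriers of bile acids, monocarboxylates and nucleosides, 2 rose and 1 fell (median -0.12), beside the same share of all tested genes. The monoamine carrier gene slc29a4 rose from 1.79 to 7.66 FPKM and the aromatic amino acid carrier gene slc16a10 from 40.1 to 73.2, whereas slc16a13 fell from 4.95 to 2.02 FPKM (limma, adjusted p = 0.00985, 0.0340 and 0.0151). The slc16a10 call was lost in 6 of 14 alternatives and that of slc16a13 in 2 of 13.

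Several marker lists of other cell types differed between the genotypes. Beside the counts that follow, 5.91% of all tested genes were called higher and 5.45% lower. The summed hepatocyte markers (11 genes, 2 risen and none fallen) were 92460 to 97892 FPKM in the mutant and 101011 to 115789 in the wild type, without overlap. Group means differed most for fabp10a, which was not called and had 12174.5 to 16806.6 against 16669.3 to 30426.9 FPKM. Without it the sums lay nearer, at 80212 to 81788 against 83843 to 85362 FPKM, still without overlap. Erythrocyte markers (5 genes, 4 fallen) summed to 176 to 196 FPKM against 324 to 390 FPKM, macrophage markers (7 genes, 4 risen) to 63.1 to 84.1 against 24.9 to 43.3, and neutrophil markers (5 of 6 genes tested, 4 risen) to 23.6 to 59.0 against 7.06 to 11.9. The filter admitted the risen mmp13a through its mutant libraries alone and the fallen epb41b through its wild type libraries alone. On recovered reads 4 erythrocyte, 5 macrophage and 3 neutrophil markers passed, where 12.4% of all tested genes did. Enterocyte markers (8 genes, 3 tested, 1 fallen) summed to 4.01 to 6.51 FPKM in the mutant and 9.58 to 30.9 in the wild type. The fatty acid binding protein gene fabp2 alone carried this gap, at 0.209 to 1.01 against 4.26 to 25.7 FPKM, and without it the sums overlapped, at 3.80 to 5.49 against 5.18 to 5.67 FPKM. On recovered reads no enterocyte marker passed, fabp2 included. Kidney tubule markers, the tissue in which slc22a2 is best known, were low in every library, their sum being 2.91 to 3.76 FPKM against 3.18 to 6.42 FPKM for 4 genes, with 1 tested and not past the threshold. Cholangiocyte markers (6 genes) summed to 248 to 291 against 230 to 271 FPKM, and pancreatic markers (11 genes) to 229 to 845 against 233 to 1693 FPKM. None of these 2 lists or of the kidney list passed in limma or on recovered reads, and only 2 cholangiocyte genes had an unadjusted p under 0.05. Of 7 genes high in female liver, the vitellogenins and the oestrogen receptor gene esr1, 2 were tested and 1 fell, the vitellogenin gene vtg5, at 1.16 to 2.85 FPKM in mutants against 7.58 to 10.2 FPKM. The other 6 genes together had 1.06 to 1.51 against 0.987 to 2.02 FPKM and overlapped. The part of these differences in the transporter results was not tested.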

How the data were processed

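The authors deposited FPKM values for 23354 genes and, per library, lists of transcript events with FPKM. The submitters' processing notes name DESeq2 and the build GRCz11; for aligner, counter and annotation release, the sources used here say nothing. Gene symbols follow the deposited table, and 45 of the 46 member identifiers were found in the gene name table.

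FPKM values are not counts, so log2(FPKM + 1) was fitted in limma (version 3.58.1, under R 4.3.3) with genotype as the only term, an intensity trend and two-sided tests. Genes entered at 1 FPKM or more in 3 or more of the libraries. Depth and gene lengths were solved for from the FPKM values, because each is a multiple of what a single read is worth; whole reads, within 0.05 reads, came out for 23352 genes. These recovered reads were also fitted with limma voom. Counting intervals (95%, exact binomial) cover counting error only. Fits and read recovery were tested on simulated data. There the fit called 50 of 100 genes changed 2-fold and 99 of 100 changed 4-fold. A member that did not pass is thus not shown to be unchanged. Tables were made in Python 3.11.15 with scipy 1.17.1.

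Named members are those past the threshold in limma, without the filter or on recovered reads, and the 3 most abundant of each family; from each other list, at most 3 genes past the threshold by smallest p. Further members are given to complete each family. Members and lists were chosen with earlier results of these data known. One tested member is not reported here by itself and is counted in the totals. No sequences are printed, and promoter motifs were not searched. Alternatives changed the pseudocount (0.1), the scaling (median or quantile), the filter (none or 5 FPKM) or the moderation (robust), added the replicate number as a block, used recovered reads, or left out each library in turn.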

Additional observations from a re-analysis of the deposited data

How the results depend on the processing

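Between 4 and 8 members were past the threshold, against 6 as reported, with a pseudocount of 0.1 (6, where 10.6% of all genes passed), median scaling (7, 12.7%), quantile normalization (8, 12.4%), robust moderation (6, 11.6%), recovered reads (7, 12.4%) and no filter (4 of 46, 2.53%). All 6 reported members were among those called in each of these except with no filter, which kept 4. A filter of 5 FPKM left 13 members, and 2 passed (15.4%), below the 17.997% of all 5112 genes tested there. Leaving out 1 library gave 2 to 5 of 25 members, where 3.71% to 10.2% of all genes passed. The lowest counts were 2 (mutant replicate 1 left out, 4.62% of all genes) and 3 (wild type replicate 2 left out, 3.71%). Over all genes, the 1268 calls became 592 of 23354 with no filter and 414 to 1134 without 1 library. With members within 10 Mb of capn3b left out, an alternative chosen after seeing the data, 5 of 24 passed. The share over all genes in that fit, with none left out, was 11.4%. Same-numbered libraries did not deviate together (correlations over genes of -0.04, -0.01 and -0.08 for replicates 1, 2 and 3), so the labels' numbers were not taken as pairs; the replicate block gave 7 members (8.51% of all genes), slc47a1 being the addition, and changed no other member's call. Of the named members, signs reversed in 2 that were not called: without 1 library the log2 fold change of abcc5 ran from -0.33 to 0.0069, positive only without wild type replicate 3, and that of abcc6b.1 from -0.17 to 0.051, with 0.029 and 0.051 when replicate 1 or 3 of the mutant was left out and 0.048 when replicate 1 of the wild type was. The cause was not tested. Of the regulators, nr1h3 lost its call under the block. Without the filter none of the 21 members below it passed in limma, and 3 had an unadjusted p under 0.05 (lowest adjusted p 0.0547, for slco1c1).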

Other observations

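Outside the naming rule, 16 further genes of the table carry a protein description of these families under a clone name, an upper-case symbol or another symbol, and 4 of them were tested. Singled out after their values were seen, CR407583.1, described as a putative slc22 carrier, had 5.61, 7.61 and 4.15 FPKM in the mutant libraries and 2.59, 2.07 and 2.41 FPKM in the wild type libraries (log2 fold change 0.99, standard error 0.20, limma adjusted p = 0.0209). It was higher in 3 of 3 mutant libraries, whereas all 5 tested slc22a members had lower means in the mutant. The gene oatx, described as an organic anion carrier of the same family, had 0.0328, 2.44 and 1.17 FPKM in the mutant and 4.17, 5.76 and 3.49 FPKM in the wild type, and its adjusted p of 0.0546 (limma) missed the threshold.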
